A study of Xenopus tropicalis with 13 samples.

Results

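A set of 9 genes that encode splicing factors and other RNA-binding proteins was followed in single Xenopus tropicalis embryos (western clawed frog) from a study of Taf15 depletion. They were smn2, prpf6, srsf4, hnrnpk, hnrnph1, hnrnpm, mbnl2, rbm23 and adar, out of 3270 genes that appear in at least 1 of the 4 deposited tables of changed genes and changed gene segments. The genes were chosen by function and from the deposited changes themselves, so their changes are given as a description and carry no test of their own. In short, smn2 and rbm23 were lower in MO-injected embryos at both stages, hnrnpk was lower at stage 10 and mbnl2 at stage 15, while hnrnph1 and adar were higher at stage 15. The same segment of prpf6, and 1 of srsf4, were listed as raised in MO-injected embryos at both stages, while different segments of adar were listed at each stage. Another srsf4 segment and segments of hnrnpm and hnrnpk were listed as raised at stage 15.

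MO-injected embryos had received a morpholino, an antisense oligonucleotide that blocks translation or splicing of a target RNA, and the series title names Taf15 as the target. Which morpholino of the study design these embryos received is not stated in the sample labels, and no embryo given a mismatch morpholino is among the samples analysed here. Polyadenylated RNA was sequenced from 3 MO-injected and 3 uninjected whole embryos at stage 10, the onset of gastrulation, and from 3 MO-injected and 4 uninjected whole embryos at stage 15, the neurula. The labels name no genotype or strain, and each library is 1 embryo. Library names of stage 15 are of 2 forms, both present in each group, while those of stage 10 are all of 1 form, and count columns cannot be traced to either form, so no value within a form can be given. In the uninjected stage 15 group, 1 embryo is called stage 10 in its description and source name but stage 15 in its title and stage label, and the count columns cannot be traced to it. Because whole embryos were sequenced, fewer cells of a type and less RNA per cell cannot be told apart.

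Introns are removed by the spliceosome, which is built from small nuclear ribonucleoproteins (snRNPs) and many associated proteins. Which exons are kept is tuned by SR proteins, which generally favour exon inclusion, and by heterogeneous nuclear ribonucleoproteins (hnRNPs), which often repress it. Taf15 itself is an RNA-binding protein that acts in transcription and RNA processing. Many genes of splicing regulators are themselves alternatively spliced, and in mammals SR protein genes carry poison exons whose inclusion sends the transcript to decay. The gene taf15 has 0 rows in the 4 tables, so the level of its own RNA is not checked here.

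The tables were of 2 kinds. Gene-level tables gave a log2 fold change of each listed gene with its standard error (SE). Bin tables gave raw read counts per embryo for bins, the pieces into which a gene is divided at the boundaries of its transcript models. They also gave each group's score of a bin's usage relative to the rest of its gene, and the log2 ratio of these scores, called the usage change. Only items with an adjusted p under 0.1 were listed. The stage 15 gene table held nothing under 2-fold, and neither bin table held a bin whose usage score differed by less than 2-fold. The scale of these scores is unknown, so that limit is not a 2-fold limit in reads. The gene-level files do not name the direction of their fold change, which was read from the raw counts of genes found in both kinds of table. A gene missing from a table is therefore not shown to be unchanged, and the total read number of each library is unknown.

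Of the 9 genes, 6 were listed at gene level at 1 or both stages and 5 had a listed bin, with adar and hnrnpk in both sets. At gene level, hnrnpm, srsf4 and prpf6 were absent at both stages, hnrnph1, mbnl2 and adar were absent at stage 10, and hnrnpk was absent at stage 15. No bin of smn2, rbm23, hnrnph1 or mbnl2 was listed at either stage. The bins of hnrnpm and hnrnpk were absent from the stage 10 table.

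At stage 10, 3 of the 9 genes were listed, 0 as higher and 3 as lower in MO-injected embryos. The deposited p-values imply that at least 13317 genes were tested, so at most 2.19% of tested genes were listed, at most 0.954% as higher and at most 1.24% as lower. At stage 15, 5 of the 9 were listed, 2 as higher and 3 as lower. There at least 15849 genes were tested, of which at most 13.2% were listed, at most 5.96% as higher and at most 7.26% as lower. These shares are printed as background only, since the genes were chosen from these comparisons.

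The gene smn2 encodes survival motor neuron protein, the core of the SMN complex that loads Sm proteins onto spliceosomal RNAs. RefSeq's frog gene table knows it as a synonym of smn1, the gene whose human counterpart is mutated in spinal muscular atrophy. In the authors' deposited tables its log2 fold change was -1.08 (SE 0.214, adjusted p = 0.000172) at stage 10, which is 0.472 of the uninjected level with a 95% interval of 0.353 to 0.631. For stage 15 the authors' deposited table gives -1.44 (SE 0.208, adjusted p = 4.15e-10), or 0.369 of the uninjected level (0.278 to 0.489). It ranked 30th by p-value among the 292 genes of stage 10 and 184th among the 2094 of stage 15. The 2 changes differed by -0.36 on the log2 scale (SE 0.299, 95% interval -0.94 to 0.23), given as a description since both values had served to choose the gene.

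Of the 9 genes, 3 were listed at gene level at stage 10 and 5 at stage 15, and among those listed rbm23 had the greatest change at both stages. It encodes an RNA-recognition-motif protein related to the splicing coactivator RBM39 of mammals. In the authors' deposited tables it was at -1.23 (SE 0.270, adjusted p = 0.00117) on the log2 scale at stage 10 and at -3.00 (SE 0.281, adjusted p = 1.36e-23) at stage 15. The MO-injected level was thus 0.426 of the uninjected level at stage 10 (95% interval 0.295 to 0.616) and 0.125 of it at stage 15 (0.0854 to 0.184). By p-value rbm23 stood 61st at stage 10 and 20th at stage 15. The change at stage 15 minus that at stage 10 was -1.77 (SE 0.390, 95% interval -2.53 to -1.0), given as a description because both changes had served to choose the gene.

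Of the 3 hnRNP genes, hnrnpk and hnrnph1 were listed at gene level and went in opposite directions at different stages. The KH-domain protein encoded by hnrnpk binds C-rich RNA, and hnRNP H1, encoded by hnrnph1, binds G-rich RNA. The authors' deposited table gives hnrnpk at stage 10 as -0.55 (SE 0.158, adjusted p = 0.0369), that is 0.684 of the uninjected level (95% interval 0.552 to 0.847), and it ranked 183rd by p-value. A change of this size would not enter the stage 15 table, which starts at 2-fold. For hnrnph1 at stage 15 the authors' deposited table gives 1.03 (SE 0.151, adjusted p = 6.53e-10), a 2.04-fold higher level in MO-injected embryos (1.66 to 2.51), just inside the 2-fold limit. Both rest on many reads, with a mean normalised count of 33452 for hnrnpk and 30090 for hnrnph1 in the authors' deposited tables. The median was 565.6 over the genes listed at stage 10 and 78.1 over those listed at stage 15. These mean counts, here and below, are the same at both stages for all 53 genes listed at both, so they do not give the coverage at a single stage.

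The other listed genes of stage 15 were mbnl2 and adar. Muscleblind-like proteins such as that of mbnl2 switch exons from fetal to adult patterns in mammals and are sequestered by repeat RNA in human myotonic dystrophy. In the authors' deposited table mbnl2 was at -1.20 (SE 0.311, adjusted p = 0.00134), or 0.435 of the uninjected level (95% interval 0.286 to 0.664), and its mean normalised count was 170.0. The gene adar encodes an adenosine deaminase that edits adenosine to inosine in double-stranded RNA. Its log2 fold change in the authors' deposited table was 1.15 (SE 0.247, adjusted p = 6.44e-05), a 2.22-fold higher level in MO-injected embryos (1.59 to 3.11), with a mean normalised count of 1369. By p-value hnrnph1 ranked 195th, adar 646th and mbnl2 985th of the 2094 genes.

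**Figure D1:**
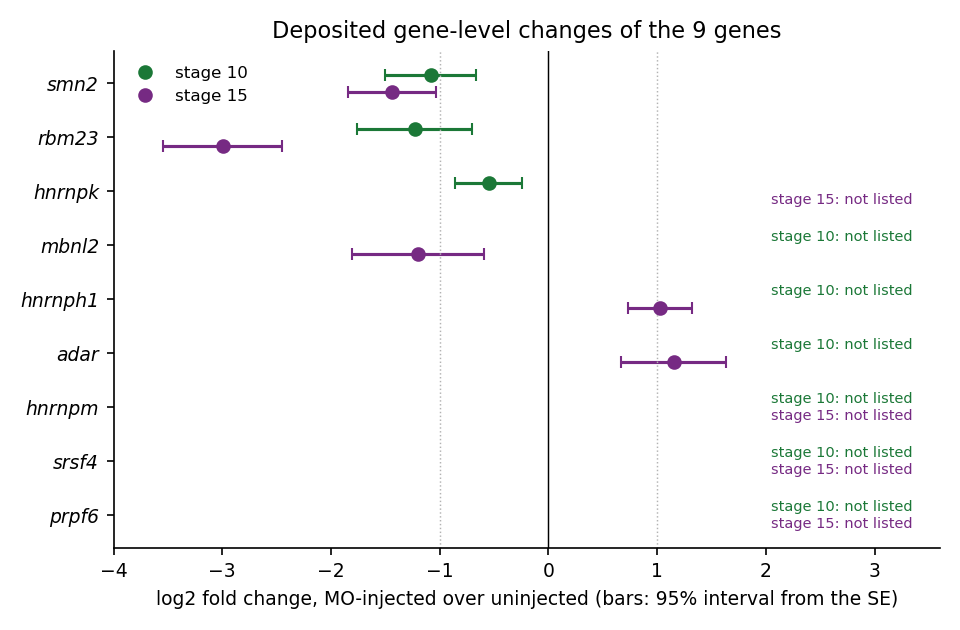
Deposited log2 fold changes of the 9 genes, MO-injected over uninjected (x axis), at stage 10 (upper point of each gene, green) and stage 15 (lower point, purple), with 95% intervals from the deposited SE and dotted lines at 2-fold. The gene rbm23 reaches -3.00 at stage 15, hnrnph1 and adar are the 2 genes to the right of 0, and hnrnpm, srsf4 and prpf6 are listed at neither stage.

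The bin tables held 10 entries for 5 of the genes, 3 at stage 10 and 7 at stage 15, which are 8 different bins. The authors' deposited usage score of every listed bin, of these genes and of all others, was at least 2-fold higher in MO-injected embryos. The scale of the scores is unknown, so this is not a fold change in reads. For prpf6 E017 at stage 10 the scores were 12.7 in MO-injected and 5.36 in uninjected embryos, where mean raw reads were 67.3 and 11.3. In raw counts the ratio was below 1 for 0 listed bins at stage 10 and for 12 at stage 15, none of them in the 9 genes. At least 161758 bins were tested at stage 10 and at least 191385 at stage 15, so at most 0.141% and at most 0.747% of tested bins were listed. In all 10 entries the MO-injected embryo with fewest reads had more reads than the uninjected embryo with most. The same held for 97.4% of all listed bins at stage 10 and for 75.5% at stage 15, and because bins were listed for this difference the count is not a test. Coordinates below are those of the deposited tables, counted from 1, on a genome build not given in the sources used here.

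A component of the U4/U6.U5 tri-snRNP that bridges its U5 and U4/U6 parts is encoded by prpf6. Its bin E017, 102 bases on the forward strand of scaffold_828 from 8483 to 8584, was listed at both stages. At stage 10 the bin had 56, 78 and 68 raw reads in MO-injected embryos, against 8, 17 and 9 in uninjected embryos. At stage 15 it had 58, 77 and 62 reads in MO-injected embryos, against 9, 18, 8 and 10 in uninjected embryos. The groups did not overlap at either stage.

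The means of prpf6 E017 were 67.3 ± 11.0 reads in MO-injected and 11.3 ± 4.93 in uninjected embryos at stage 10 (SD, n = 3 each). At stage 15 they were 65.7 ± 10.0 in MO-injected (SD, n = 3) and 11.25 ± 4.57 in uninjected embryos (SD, n = 4). With a pseudocount of 0.5, the raw-count ratio was 5.73-fold at stage 10 and 5.63-fold at stage 15, or 2.52 and 2.49 on the log2 scale. The authors' deposited log2 usage change, with its sign turned to MO-injected over uninjected, was 1.25 (adjusted p = 8.62e-19) at stage 10 and 1.16 (adjusted p = 3.33e-17) at stage 15. Ranked by p-value the bin was 18th of 228 at stage 10 and 148th of 1429 at stage 15. In the authors' deposited table of retained introns, which covers the top named genes of each stage, prpf6 is given at stage 10 with 1 retained intron, the 16th. Neither prpf6 at stage 15 nor any other of the 9 genes is given there, which does not show that their introns were removed.

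The SR protein gene srsf4 had 2 listed bins close to each other on the forward strand of scaffold_2. Bin E008 is the single base at 6433351, and bin E010 runs from 6433394 to 6433697, which is 304 bases, with 42 bases between them. The tables assign them to different transcript models. E008 was listed at both stages and E010 at stage 15.

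At stage 10 srsf4 E008 had 22, 42 and 22 raw reads in MO-injected embryos, against 2, 8 and 6 in uninjected embryos, a 5.0-fold raw-count ratio (log2 2.32). At stage 15 it had 10, 8 and 12 reads in MO-injected embryos, against 4, 0, 4 and 4 in uninjected embryos, a 3.0-fold ratio (log2 1.58), so few reads carry the later value. In the authors' deposited tables its log2 usage change was 1.10 (adjusted p = 1.24e-05) at stage 10 and 1.35 (adjusted p = 0.000212) at stage 15.

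Bin E010 of srsf4 held the most reads of the 10 entries. At stage 15 it had 267, 156 and 320 raw reads in MO-injected embryos, against 24, 13, 24 and 42 in uninjected embryos. Every MO-injected embryo was far above the uninjected range of 13 to 42, and the second MO column was the lowest of its group. The means were 248 ± 83.7 in MO-injected (SD, n = 3) and 25.75 ± 12.01 in uninjected embryos (SD, n = 4), a 9.45-fold ratio (log2 3.24). The authors' deposited log2 usage change was 1.81 (adjusted p = 4.86e-13), and no change of srsf4 at gene level was listed beside it.

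For adar, 3 bins on the reverse strand of scaffold_8c were listed, and none at both stages. Bin E006, from 151267 to 151453 and 187 bases long, was listed at stage 10, and bin E005, from 151200 to 151266 and 67 bases long, at stage 15. The 2 bins touch, with 0 bases between them, and together span 254 bases. Bin E023, 104 bases from 165168 to 165271, was listed at stage 15 and lies 13714 bases beyond E006, which is upstream on this strand.

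At stage 10 adar E006 had 43, 54 and 48 raw reads in MO-injected embryos, against 6, 6 and 13 in uninjected embryos, a 5.53-fold ratio (log2 2.47). At stage 15 adar E023 had 63, 44 and 63 reads in MO-injected embryos, against 8, 5, 1 and 7 in uninjected embryos, a 9.94-fold ratio (log2 3.31). Bin E005, also at stage 15, had 29, 29 and 20 reads in MO-injected embryos, against 3, 0, 3 and 2 in uninjected embryos, a 10.6-fold ratio (log2 3.41). No adar bin overlapped between groups. The log2 usage changes in the authors' deposited tables were 1.03 (adjusted p = 1.84e-08) for E006, 1.14 (adjusted p = 1.30e-09) for E023 and 1.30 (adjusted p = 5.88e-05) for E005. At stage 15 adar was thus listed both as higher at gene level, at 1.15 on the log2 scale, and with raised bins. How much of the gene-level value comes from reads in these bins was not tested.

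Of the hnRNP genes, hnrnpm and hnrnpk each had 1 listed bin at stage 15. hnRNP M, encoded by hnrnpm, binds GU-rich RNA and regulates alternative exons in mammals. Its bin E011, 345 bases on the reverse strand of scaffold_1 from 136415638 to 136415982, had 107, 113 and 74 raw reads in MO-injected embryos, against 15, 3, 11 and 10 in uninjected embryos. The means were 98.0 ± 21.0 in MO-injected (SD, n = 3) and 9.75 ± 4.99 in uninjected embryos (SD, n = 4), a 9.61-fold ratio (log2 3.26), and the authors' deposited log2 usage change was 1.54 (adjusted p = 6.35e-17). All MO-injected embryos had 74 reads or more and all uninjected embryos 15 or fewer.

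Bin E030 of hnrnpk, 152 bases on the reverse strand of scaffold_1 from 84957961 to 84958112, was thinly covered. It had 19, 11 and 10 raw reads in MO-injected embryos, against 1, 2, 6 and 1 in uninjected embryos, a 4.61-fold ratio (log2 2.21). Leaving out 1 embryo at a time gave log2 ratios of 1.87 to 2.92. The lowest was without the first MO column, which had 19 reads, and the highest without the third uninjected column, which had 6. The authors' deposited log2 usage change was 1.18 (adjusted p = 0.00424). At gene level hnrnpk was not listed at this stage.

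**Figure D2:**
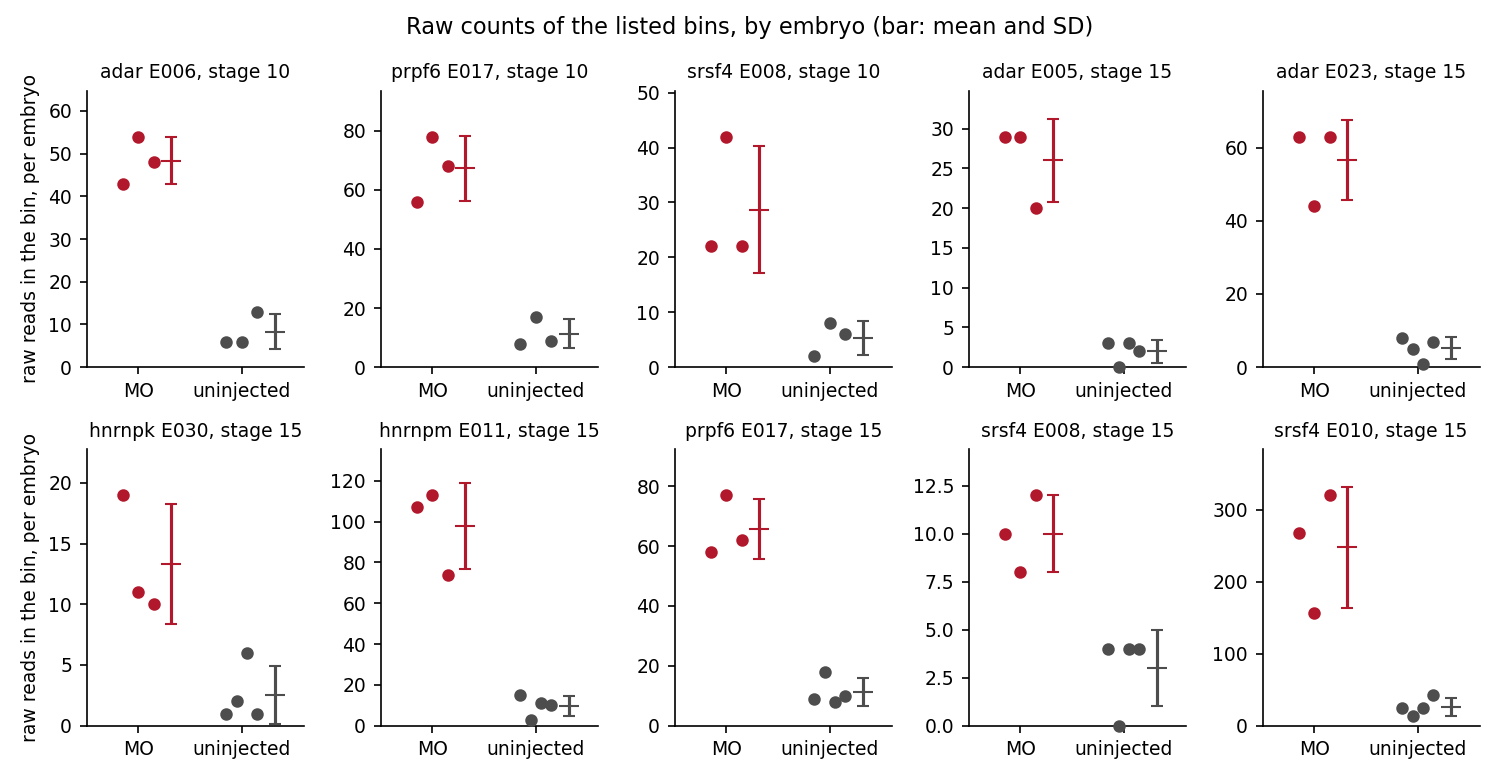
Raw reads (y axis, from 0) of each of the 10 listed bin entries, with 1 point per embryo for MO-injected (left, red) and uninjected embryos (right, grey), and the mean with its SD beside the points. In every panel all MO-injected embryos lie above all uninjected embryos, and the scales run from 12 reads at most for srsf4 E008 at stage 15 to 320 for srsf4 E010.

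Among the entries, the raw-count ratio ran on the log2 scale from 2.32 to 2.52 at stage 10, with a median of 2.47, and from 1.58 to 3.41 at stage 15, with a median of 3.24. The medians over all listed bins were 3.04 at stage 10 and 2.72 at stage 15. At stage 10 the 3 bins therefore lay below the median of their table, and at stage 15 those of adar, hnrnpm and srsf4 E010 lay above it and those of prpf6, hnrnpk and srsf4 E008 below. The deposited log2 usage change placed some of them otherwise. Its median over all listed bins was 1.62 at stage 10 and 1.75 at stage 15. At stage 10 the 3 bins lay below that median too. At stage 15 only srsf4 E010, at 1.81, lay above it, and the bins of adar and hnrnpm lay below. The median width of the entries was 102 bases at stage 10 and 104 at stage 15, against 233.5 and 180 over all listed bins, with hnrnpm E011 and srsf4 E010 wider than the stage 15 median. The median of their mean read counts was 28.3 per embryo at stage 10 and 27.3 at stage 15, against 7.75 and 6.86 over all listed bins, and srsf4 E008 at stage 15, with 6.0, lay below the median of its table. No entry was without reads in all uninjected embryos, as 49 listed bins were at stage 10 and 229 at stage 15. In all 10 entries the log2 ratio of raw counts was larger than the deposited log2 usage change. The same held for most listed bins, 177 of 228 at stage 10 and 1089 of 1429 at stage 15.

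**Figure D3:**
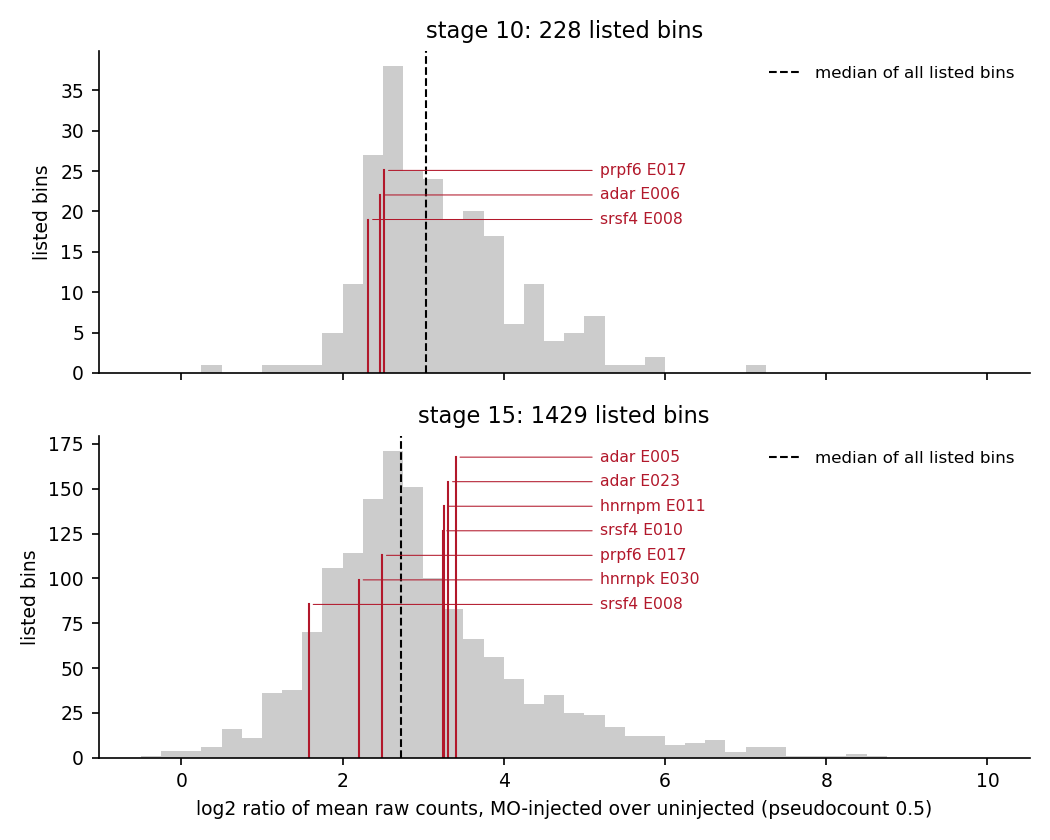
Distribution of the log2 ratio of mean raw counts, MO-injected over uninjected with a pseudocount of 0.5 (x axis), over the 228 bins listed at stage 10 (top) and the 1429 listed at stage 15 (bottom), as numbers of bins (y axis), with the dashed line at their median. Red lines of arbitrary height mark the bins of the genes described here, which sit at 2.32 to 2.52 at stage 10 and at 1.58 to 3.41 at stage 15. The lowest ratios of stage 15, down to -1.65, fall outside the plotted range and are not drawn.

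Listing at both stages could be compared in the bins, although different embryos were used and a bin missing at 1 stage is not shown to be unchanged. Of the 3 bins of stage 10, 2 were listed again at stage 15, those of prpf6 and srsf4 E008, which is 66.7% of the 3 and 28.6% of the 7 bins of stage 15. Over all listed bins 108 were shared, which is 47.4% of the stage 10 bins and 7.56% of the stage 15 bins. Gene-level and bin-level listings coincided at stage 15 for adar, 1 of the 5 genes with a bin (20%), where 169 of all 1046 genes with a bin (16.2%) were also listed at gene level.

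The 9 genes belong to a wider list of 249 genes of splicing and RNA binding, put together with the earlier results known, of which 238 had a name in RefSeq's table. At stage 10, 8 list genes were listed at gene level, 0 as higher and 8 as lower, with a median log2 fold change of -0.85. Over all listed genes of that stage, 127 were higher and 165 lower, with a median of -0.60. Besides smn2, rbm23 and hnrnpk, the authors' deposited table held rbm20, which regulates titin splicing in the mammalian heart, at -1.88 (SE 0.353), and elavl3, an RNA-binding protein gene of neurons, at -1.0 (SE 0.279). It also held smg5 of nonsense-mediated decay at -0.70 (SE 0.226), plrg1 of the Prp19 complex of the spliceosome at -0.61 (SE 0.196) and tia1 at -0.55 (SE 0.120).

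At stage 15, 12 list genes were listed at gene level, 3 as higher and 9 as lower, with a median of -1.15, against 944 higher and 1150 lower genes and a median of -1.07 in the whole table. The 12 of 249 stand beside the at most 13.2% of all tested genes listed at this stage, and the 8 of 249 at stage 10 beside at most 2.19%. How many of the 249 names were among the tested genes is unknown, so these shares cannot be compared directly. The same holds for the classes below. Of the 14 genes of the SMN complex and snRNP assembly, 1 was listed at stage 10, smn2, which was chosen from these changes. At stage 15, 3 of the 14, again counting smn2, and 2 of the 84 genes classed as core spliceosome were lower, beside at most 7.26% of all tested genes. In the RBM family 3 of 37 were lower, and among alternative splicing regulators 1 of 33. Both counts include genes chosen from these changes, rbm23 and mbnl2. The other classes had no gene listed as lower at stage 15. Here smn2 was joined among the lower genes in the authors' deposited table by gemin7, a subunit of the SMN complex, at -1.64 (SE 0.523), and by prmt5, which methylates Sm proteins, at -1.02 (SE 0.205). The 84 genes classed as core spliceosome also include tia1, so the class is wider than its name. Of them, the authors' deposited table lists prpf19, the ubiquitin ligase at the core of the Prp19 complex, at -1.32 (SE 0.140) and sart1 of the tri-snRNP at -1.06 (SE 0.167). From the RBM family the authors' deposited table holds rbm4 at -1.09 (SE 0.347) and rbm46 at -1.78 (SE 0.710), and from nonsense-mediated decay upf3a, which was higher, at 2.20 (SE 0.580). The mean normalised counts of gemin7, rbm4, upf3a and rbm46 were 37.9, 31.3, 28.2 and 9.24 in the authors' deposited table, so these 4 rest on few reads. None of the 23 SR-related genes was listed at gene level at either stage, which does not show them unchanged, where at most 2.19% of all tested genes were listed at stage 10 and at most 13.2% at stage 15.

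**Figure D4:**
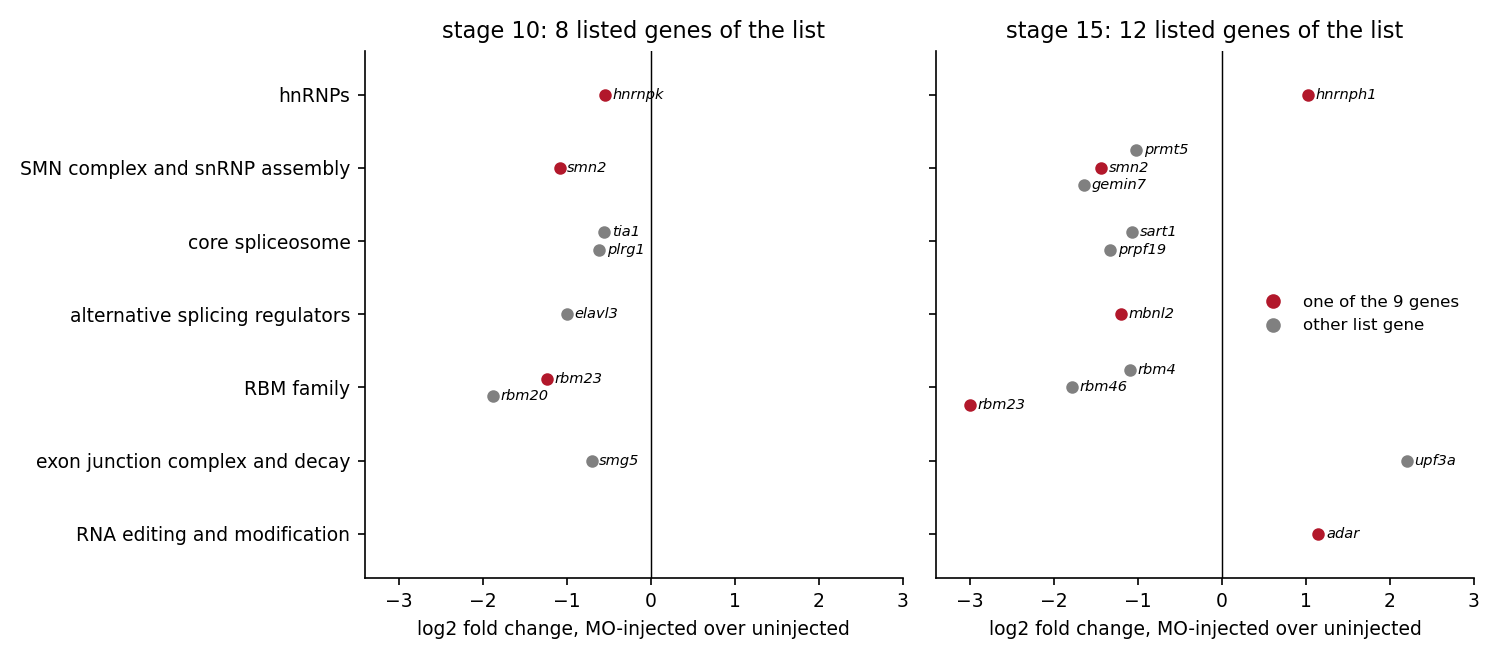
Deposited log2 fold changes (x axis, MO-injected over uninjected) of the listed genes of the wider splicing and RNA-binding list at stage 10 (left) and stage 15 (right), by class (y axis, classes with a listed gene), with the genes described here in red. At stage 10 all 8 points are left of 0, and at stage 15 hnrnph1, adar and upf3a are right of 0 and 9 genes left of it.

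At bin level, 6 list genes had 8 listed bins at stage 10 and 16 list genes had 24 at stage 15, all with more reads on average in MO-injected embryos. Their median log2 raw-count ratio was 2.49 at stage 10 and 2.85 at stage 15, beside 3.04 and 2.72 over all listed bins. By the deposited log2 usage change their medians were 1.25 and 1.57, beside 1.62 and 1.75 over all listed bins, and so lower at both stages. At stage 10 the other genes were puf60 with 2 bins, sfpq with 2 and aqr, an intron-binding helicase, with 1. At stage 15 snrnp48, a protein of the minor spliceosome, had 4 bins. Its 4112-base bin E031 averaged 115 ± 43.0 raw reads in MO-injected (SD, n = 3) and 2.50 ± 1.91 in uninjected embryos (SD, n = 4), a 38.5-fold ratio. Bin E003 of puf60 had 63 to 96 reads in MO-injected embryos (n = 3) and 1 to 4 in uninjected embryos (n = 4), a 29.8-fold ratio, so the ratios of adar, hnrnpm and srsf4 were not the greatest of the list.

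The remaining list genes with a bin at stage 15 included dhx8, a helicase that releases spliced RNA from the spliceosome, with 2 bins, and luc7l, tia1, rbmx2, nova2, prmt5, sart1 and prpf40b with 1 each. The uninjected embryos had 18, 6, 17 and 16 reads in dhx8 E005 and 9, 9, 9 and 20 in dhx8 E006. Counts did not overlap between groups in 21 of the 24 list bins (87.5%), beside 75.5% of all listed bins at that stage. The exceptions were prmt5, sart1 and prpf40b. Of the 16 list genes with a bin at stage 15, 3 were also listed at gene level (18.8%), namely adar, which was higher, and prmt5 and sart1, which were lower while a bin of each was raised. Both of these bins rest on few reads. The bin of sart1 had 0 to 11 reads in MO-injected embryos and 0 in every uninjected embryo. The bin of prmt5 had 3 to 15 reads in MO-injected and 1 to 7 in uninjected embryos.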

How the data were processed

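Polyadenylated RNA of 13 single embryos was sequenced. Tools named in the submitters' processing notes, without role or version, are DESeq2, DESeq, Cuffdiff, Cufflinks, Bowtie and TopHat, with build and annotation not given in the sources used here. Per the file headers, the authors deposited, for listed genes, a mean normalised count (a signal scaled between libraries, identical in both tables for all 53 shared genes), a log2 fold change with its SE, and a raw and an adjusted p-value. For listed bins they deposited raw counts per embryo, their mean (signal), usage scores, a log2 usage ratio (uninjected over MO-injected, turned here), a p-value and coordinates, and for some genes a number of retained introns. Gene-level direction is not named; it was read from raw bin counts, which correlated across genes with the deposited log2 values (Spearman 0.709 over 11 genes at stage 10, 0.692 over 169 at stage 15). The stage 15 count columns are named for stage 10 and were taken as stage 15 from their fitted columns and their 4 uninjected columns. Unused columns of per-embryo values numbered 0.

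The files hold selected items only, so no test was run here, and every adjusted p is the authors' own and rests on the spread between single embryos, with the test behind it not given in the sources used here. Intervals are 1.96 SE. Raw-count ratios use means plus a pseudocount of 0.5 and are not corrected for library depth, which is unknown. The least number of features tested follows from the Benjamini-Hochberg relation of p and adjusted p, a step tested on simulated data. The genes and lists were chosen with earlier results of these data known. All 9 genes are described; other list genes are named only where a table lists them, at most the 10 with the smallest adjusted p per table. Of the 9 names, RefSeq's table for UCB_Xtro_10.0 holds 8 as symbols and smn2 as a synonym. No sequence is printed. Work was done in Python 3.11.15 with pandas 2.3.3, numpy 2.4.6, scipy 1.17.1 and matplotlib 3.10.9.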

Additional observations from a re-analysis of the deposited data

Results flagged for a closer look

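In 4 of the 24 stage 15 bins of the wider splicing list, 1 of the 4 uninjected embryos was set apart from the other 3 by a gap that is large relative to the range of the group. In 3 of the 4 bins the other embryos have equal counts, so any difference gives this result, and the rate of about 1 group in 20 that chance gives for continuous values does not apply to such counts. Of the 4 bins, 2 belong to dhx8. The column set apart was not the same in all of them. For srsf4 E008 the second uninjected column had 0 raw reads where the others had 4 each. For dhx8 E005 the second column had 6 reads where the others had 16 to 18. For dhx8 E006 the fourth column had 20 where the others had 9 each. For snrnp48 E034 the first column had 1 read where the others had 0.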

How the results depend on the processing

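The median log2 raw-count ratio of the bins was 2.47 at stage 10 and 3.24 at stage 15, and was replaced by 1.10 and 1.30 when the authors' deposited log2 usage change was taken instead. The scale of that measure is unknown, and the cause was not tested. By the usage change the median over all listed bins was 1.62 at stage 10 and 1.75 at stage 15, higher at both stages. By raw counts it was 3.04 and 2.72, so the order at stage 15 depended on the measure. For the bins of the 9 genes, a pseudocount of 0.1 gave 2.52 and 3.26, a pseudocount of 1 gave 2.40 and 3.17, and the median over embryos gave 2.85 and 3.29. Leaving out 1 embryo at a time gave medians of 2.29 to 2.70 at stage 10 and 2.98 to 3.28 at stage 15. The number of bins without overlap stayed at 3 of 3 and 7 of 7. That was fixed in advance, since leaving out an embryo cannot create an overlap, so it says nothing about stability. Counts of genes changed little: 2 in place of 3 at gene level at stage 10 with an adjusted p under 0.01 or a 2-fold limit, 4 in place of 5 genes with a bin at stage 15 with at least 10 reads per bin, and 14 in place of 12 list genes at stage 15 with synonyms. An adjusted p under 0.05 changed no count of the 9 genes. No paired analysis was possible because the count columns carry numbers that cannot be traced to the embryo letters and codes in the labels, and the gene tables hold no values per embryo. Depth limits the bins of hnrnpk and srsf4 E008, with 7.14 and 6.0 reads per embryo at stage 15.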
